A study of Mus musculus with 12 samples.

Results

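The 40 genes described here encode the amino acid arm of the integrated stress response: 20 cytosolic aminoacyl-tRNA synthetases, 9 enzymes of serine, one-carbon and asparagine metabolism, 4 membrane proteins that take up amino acids or lipoproteins, and 7 stress regulators that include the transcription factor ATF4 itself. They were picked by name from the 16389 genes of the expression table, and all 40 were found there. The names were proposed after the comparisons of injured with non-injured cord had been seen, so the differences from non-injured cord chose the genes and are given as a description. All 40 genes passed the filter on low values, and each had an NI mean above the filter minimum, the lowest being 0.644 normalized counts, so that no gene was kept only through a group in which it was high.

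When amino acids run short, uncharged tRNA activates the kinase GCN2, which phosphorylates the translation initiation factor eIF2. Most protein synthesis then slows, while the mRNA of ATF4 is translated more. ATF4 dimerises with C/EBP proteins on response elements and switches on genes that make, import and charge amino acids, together with its own partner CHOP (Ddit3) and its inhibitor TRIB3. Misfolded protein in the endoplasmic reticulum, haem shortage, viral RNA and mitochondrial damage feed into the same pathway through other eIF2 kinases. Because ATF4 is controlled mainly at translation, its mRNA level is a poor guide to its activity. In the central nervous system astrocytes are the main makers of serine, through the enzymes Phgdh, Psat1 and Psph.

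Cells were sorted by eGFP fluorescence from male Aldh1l1-EGFP transgenic mice on a Swiss Webster background. In these mice regulatory sequence of the astrocyte gene Aldh1l1 drives eGFP. Polyadenylated RNA of the sorted cells was sequenced. The methods give an age of 12 weeks at surgery and no separate age for mice without a lesion. Animals had either no lesion (non-injured, NI, 3 libraries) or a lesion at thoracic level 9, which was a hemi-section (HS) or a full transection (FT). Tissue was a 1 cm segment around the lesion, or the matching segment in NI, taken 1 week after HS (3 libraries), 2 weeks after HS (2 libraries), 1 week after FT (1 library, hence no replicate) and 2 weeks after FT (3 libraries). The methods list more animals than libraries, so a library can hold cells of several mice, and nothing in the labels says which animals make up a library. P-values therefore measure the spread between these libraries. The methods describe more replicates for HS 2 weeks and FT 1 week than the labels used here give, and the labels were followed.

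Libraries held 8270643 to 15562378 reads assigned to genes. The label astrocytes was checked against marker genes: summed over the genes of each list, oligodendrocyte transcripts (56755 to 117456 normalized counts, 12 genes) exceeded astrocyte transcripts (2743 to 15569 normalized counts, 20 genes) in all 12 libraries. Microglia and macrophage transcripts ran from 1361 to 20166 normalized counts over 17 genes over all libraries and from 1364 to 10989 within NI. In such bulk samples fewer cells of a type and less RNA per cell cannot be told apart. Aldh1l1, the gene behind the sort, ranged from 10.2 normalized counts in NI replicate 3 to 126.7 in HS 1 week replicate 2.

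C/EBP-ATF response elements are the sequences that ATF4 binds with a C/EBP partner. The RefSeq promoter windows (GRCm38.p6, 250 bases before to 50 after the start of each gene) were searched on both strands for the core TGATGNAA. A window was at hand for 31 of the 40 genes, and 10 of these 31 (32.3%) held the core, against 1219 of 27025 genes with a window (4.51%) and 1304 of 32851 windows (3.97%). By role, the core stood in 5 of 13 synthetase genes, 2 of 8 enzyme genes, 1 of 3 genes for membrane proteins and 2 of 7 regulator genes. These shares describe letters in a window and are not evidence of binding. Because the genes were picked as members of the ATF4 response, nothing is read from the excess over all genes. No window was at hand for Cars, Hars, Lars, Nars, Rars, Vars, Wars, Aldh1l2 and Slc7a5. Shown next, because they allow the reader to compare the elements of the genes named below, are 30 bases around 1 core of each gene, 5′ to 3′ along the strand that reads TGATG, with the core in capitals. Windows read on the plus strand are Tars at chr15:11399655-11399684, Yars at chr4:129189895-129189924 and Trib3 at chr2:152344028-152344057. The others read on the minus strand and are Iars at chr13:49682126-49682155, Aars at chr8:111033840-111033869, Gars at chr6:55037960-55037989, Asns at chr6:7693214-7693243, Pck2 at chr14:55540152-55540181, Vldlr at chr19:27216809-27216838 and Chac1 at chr2:119351038-119351067.
Iars: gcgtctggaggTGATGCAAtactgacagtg
Aars: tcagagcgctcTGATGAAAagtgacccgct
Tars: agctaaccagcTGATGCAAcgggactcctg
Yars: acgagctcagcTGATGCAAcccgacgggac
Gars: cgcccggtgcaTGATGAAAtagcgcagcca
Asns: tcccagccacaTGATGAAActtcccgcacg
Pck2: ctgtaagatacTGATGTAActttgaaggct
Vldlr: gctaggagcgcTGATGCAActattgctgct
Trib3: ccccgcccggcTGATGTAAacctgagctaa
Chac1: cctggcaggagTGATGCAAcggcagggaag

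Most of these cores lay close to the RefSeq start of the gene, from which the distances here are counted. Iars and Yars carried theirs 8 and 4 bases downstream of the start, Trib3 15 bases downstream, and Tars, Asns and Gars 15, 23 and 30 bases upstream. The cores of Pck2, Chac1 and Vldlr lay 103, 193 and 200 bases upstream. The core shown for Aars lay 10 bases downstream. The GENCODE gene positions used elsewhere can start at another base. By those positions the cores of Asns and Vldlr lay inside the gene and that of Trib3 lay before it.

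**Figure D1:**
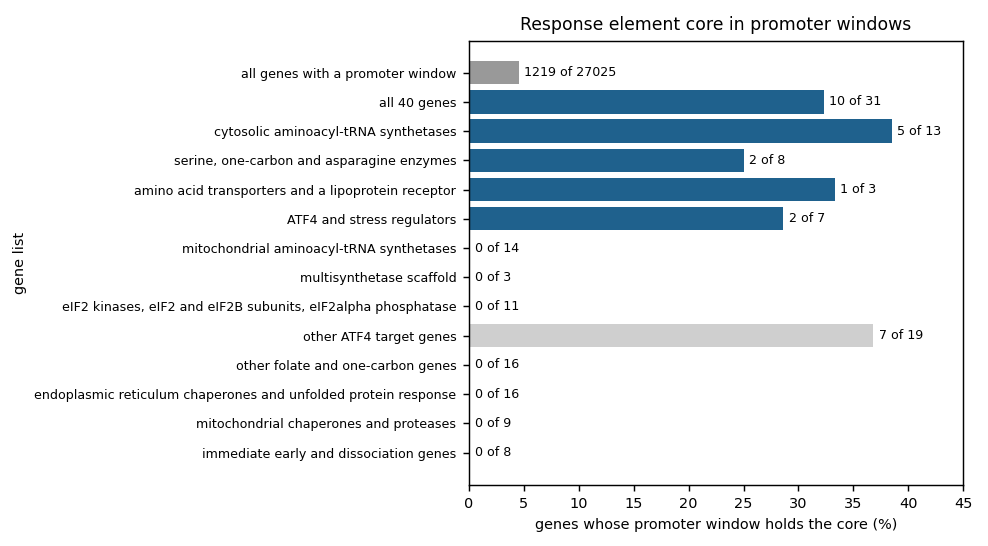
Share of genes (%, horizontal axis) whose 300-base promoter window holds the response element core, for all genes with a window (grey), for the 40 genes and their 4 role groups (blue) and for other lists (light grey), with counts beside each bar. The core was found in 10 of 31 of the genes and 7 of 19 other ATF4 target genes, and in 0 windows of the other 7 lists.

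Of the 40 genes, Aldh1l2, Iars and Trib3 were higher in injured cord than in NI, and the other 37 did not pass the test. The estimates of 31 genes lay above 0 and those of 9 below 0. The question put to each injured group was how it differed from NI. Values were compared as log2(normalized count + 1) with limma-trend over all 16388 tested genes, and a gene was called at an adjusted p under 0.05 together with a change of at least 2-fold. With the 4 injured groups averaged, 3 of the 40 genes were called higher (Aldh1l2, Iars and Trib3) and 0 lower, against 0.256% of all genes called higher, 0.0366% called lower and 0.293% called in either direction. The edgeR likelihood ratio test on the reads called the same 3 genes, with 4.09% of all genes called in either direction. The share of all genes with a fold change above 0 was 46.6%. The median log2 fold change of the 40 genes was 0.32 against −0.03 over all genes. By limma-trend the 3 calls were lost without NI replicate 2 (highest adjusted p = 0.163) or without NI replicate 3 (0.158), while the edgeR likelihood ratio test kept them. Without the single FT 1 week library the limma-trend adjusted p was 0.0584 for Iars and 0.0645 for Trib3, so that only Aldh1l2 was called. The call of Iars was also lost in the edgeR quasi-likelihood test (adjusted p = 0.052). That of Trib3 was also lost by limma-trend with the replicate block (adjusted p = 0.0515), with oligodendrocyte markers as a covariate (0.057) and with a mean of at least 5 (0.0527), and with a pseudocount of 4, where its log2 fold change was 0.84. An unadjusted p under 0.05 was reached by 15 of the 40 genes, all higher, where 6.77% of all genes reached it with a higher level and 13.9% in either direction. Since earlier results of this contrast led to the choice of the genes, nothing is read from the excess of these counts over the background. If libraries are scaled to the same total, the median over all genes moves to −0.20, 24 of the 40 genes lie above 0 and 31 lie above the median of all genes.

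Each of the 4 injured groups was also set against NI alone, with the same 3 NI libraries in every comparison. One week after HS, limma-trend called 0 of the 40 genes (0.0061% of all genes were called in either direction). An unadjusted p under 0.05 was reached by 11, against 7.66% of all genes, and 32 lay above 0, against 46.3% of all genes, with a median log2 fold change of 0.26. For HS 2 weeks it called 0 (0.0122% of all genes), 8 had an unadjusted p under 0.05 (7.49% of all genes), and 28 lay above 0 (47.8% of all genes) with a median of 0.34. For FT 1 week it called Aldh1l2 (0.452% of all genes), 12 had an unadjusted p under 0.05 (11.2% of all genes), 10 of them higher (4.56% of all genes), and 33 lay above 0 (48.5% of all genes) with a median of 0.39. For FT 2 weeks it called 0 (0.0427% of all genes), 11 had an unadjusted p under 0.05 (10.8% of all genes), and 28 lay above 0 (48.4% of all genes) with a median of 0.29. The edgeR likelihood ratio test called Aldh1l2 and Trib3 in HS 1 week (0.372% of all genes were called), all of Aldh1l2, Iars and Trib3 in HS 2 weeks (0.757%) and in FT 1 week (1.81%), and Aldh1l2 and Iars in FT 2 weeks (2.22%). By limma-trend the log2 fold changes of 24 genes were above 0 in all 4 groups, against 23.3% of all genes, and those of 4 genes were below 0 in all 4, against 25.3% of all genes.

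**Figure D2:**
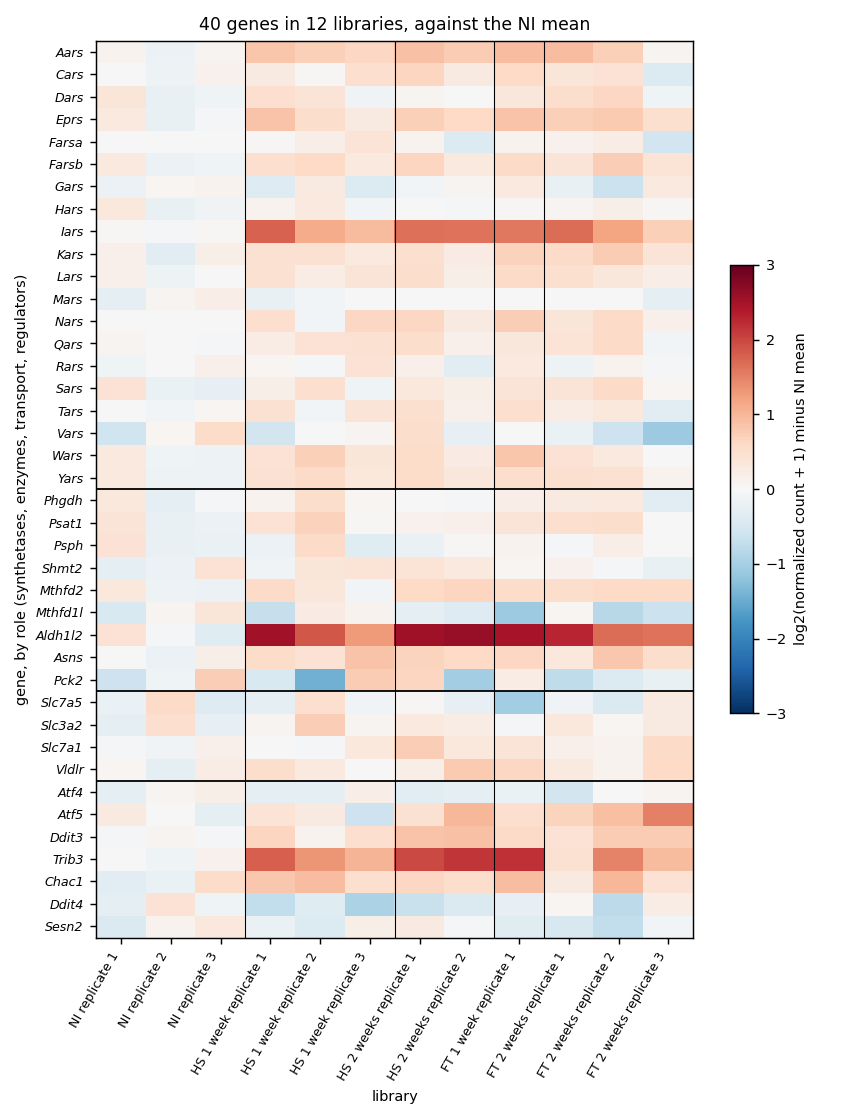
Difference of log2(normalized count + 1) from the NI mean (colour) for the 40 genes (rows, grouped by role with black lines) in the 12 libraries (columns, grouped by condition). Aldh1l2, Iars and Trib3 are the darkest red rows in the injured libraries, and of the other 37 genes only Vars, Mthfd1l, Pck2, Slc7a5 and Atf5 pass 1 unit from the NI mean in any library.

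In 7 of the 40 genes every one of the 9 injured libraries lay above every one of the 3 NI libraries: Aldh1l2, Iars, Trib3, Asns, Ddit3, Kars and Lars. Among all tested genes 1.97% did so. Without NI replicate 1 the count was 17 of the 40 genes, against 7.24% of all genes. In 0 of the 40 genes did all injured libraries lie below NI, against 0.995% of all genes. Another 7 genes (Aars, Eprs, Farsb, Nars, Qars, Yars and Mthfd2) had 8 of 9 injured libraries above NI, as did 3.55% of all genes. The library that broke the pattern was FT 2 weeks replicate 3 for Aars, Qars and Yars, HS 1 week replicate 3 for Eprs, Farsb and Mthfd2, and HS 1 week replicate 2 for Nars.

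**Figure D3:**
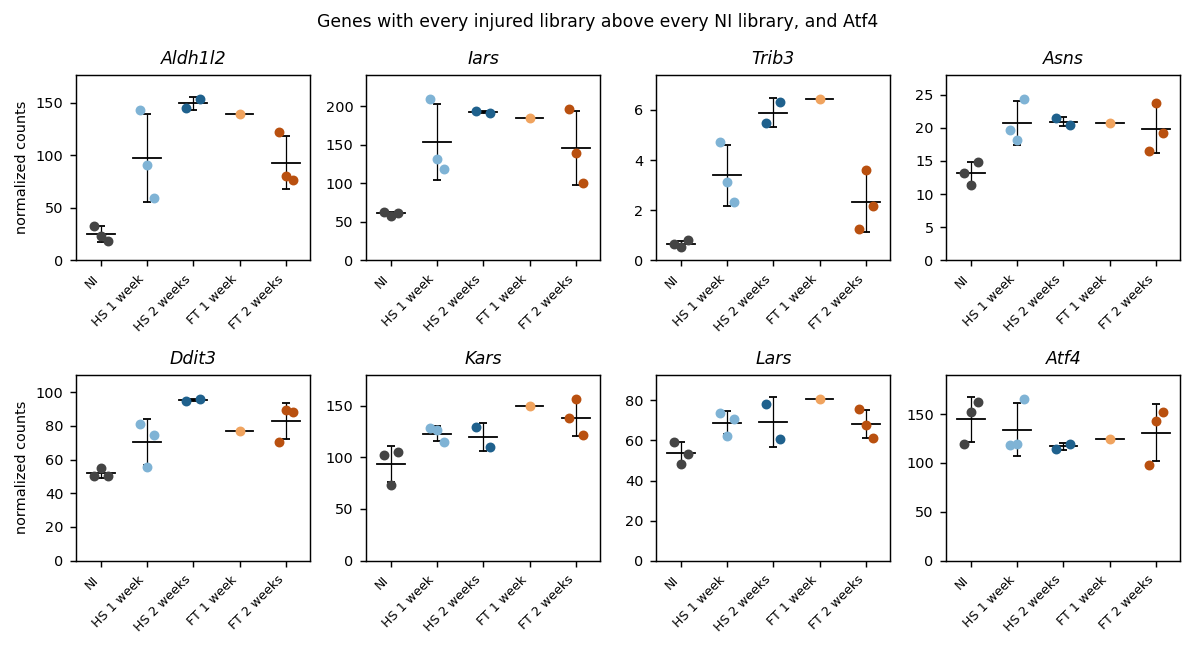
Normalized counts (vertical axes, starting at 0) of 8 genes in each library (points) by group (horizontal axes), with the group mean as a line and the SD as error bars where a group has more than 1 library. All injured points of the first 7 genes lie above all NI points, and those of Atf4 overlap NI.

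Among the regulators, Atf4 mRNA (chr15:80255184-80257541 in GENCODE M21, GRCm38) gave no call. It measured 118.9, 152.0 and 162.8 normalized counts in NI, 118.3, 118.9 and 165.4 in HS 1 week, 114.7 and 119.5 in HS 2 weeks, 124.5 in the FT 1 week library, and 97.5, 142.7 and 152.3 in FT 2 weeks. Injured and NI values overlapped throughout. The log2 fold change of the mean of injured groups was −0.19 ± 0.19 (SE, limma-trend adjusted p = 0.703, 95% interval −0.60 to 0.22).

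Trib3 (chr2:152337422-152344032), a pseudokinase induced by ATF4 and CHOP that in turn restrains them, was the regulator with the largest change, from the lowest level of the 40 genes in NI. It measured 0.629, 0.511 and 0.792 normalized counts in NI, 4.73, 3.12 and 2.32 in HS 1 week, 5.48 and 6.30 in HS 2 weeks, 6.45 in the FT 1 week library, and 1.24, 3.61 and 2.15 in FT 2 weeks. All injured libraries were higher than NI, the lowest being FT 2 weeks replicate 1. These values rest on 8 to 86 reads per library. The log2 fold change of the injured mean was 1.65 ± 0.25 (SE, limma-trend adjusted p = 0.0261), and the edgeR likelihood ratio test, which adds no count of 1 to the values, gave 2.67 (FDR = 4.21e-05).

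Ddit3 (chr10:127290774-127296288), which encodes CHOP, measured 50.3, 55.2 and 50.2 normalized counts in NI, 81.3, 55.4 and 74.4 in HS 1 week, 94.99 and 95.97 in HS 2 weeks, 77.2 in the FT 1 week library, and 70.4, 89.3 and 88.4 in FT 2 weeks. Both HS 2 weeks libraries were higher than every other library, and HS 1 week replicate 2 (55.43 normalized counts) was barely above the highest NI library (55.21). Its log2 fold change of the injured mean was 0.63 ± 0.15 (SE, limma-trend adjusted p = 0.122). Ddit3 and the methionyl synthetase gene Mars overlap at their ends on opposite strands, and the library kit does not mark strand, so that reads from the shared stretch cannot be told apart. For Mars itself the log2 fold change was −0.06 ± 0.15 (SE).

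The 4 other regulators gave no call. Chac1, which degrades glutathione, had a log2 fold change of 0.70 ± 0.23 (SE) from 4 to 25 reads per library, and the ATF4 relative Atf5 one of 0.57 ± 0.29 (SE). Ddit4 and Sesn2, stress-induced brakes on the growth kinase complex mTORC1, had log2 fold changes of −0.41 ± 0.27 and −0.20 ± 0.24 (SE). The limma-trend adjusted p-values of these 4 genes lay at 0.226, 0.424, 0.549 and 0.764.

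Among the synthetases, the enzymes that load amino acids onto tRNA, Iars (chr13:49682100-49734267) stood apart. This gene for the cytosolic isoleucyl-tRNA synthetase measured 62.2, 58.0 and 61.9 normalized counts in NI, 209.7, 131.6 and 118.4 in HS 1 week, 193.7 and 191.1 in HS 2 weeks, 184.8 in the FT 1 week library, and 196.2, 139.7 and 100.3 in FT 2 weeks. NI libraries were tightly grouped, and the lowest injured library was FT 2 weeks replicate 3. The log2 fold change of the injured mean was 1.43 ± 0.22 (SE), a 2.69-fold rise (limma-trend adjusted p = 0.0282). Per group it was 1.28 ± 0.27 for HS 1 week, 1.65 ± 0.30 for HS 2 weeks, 1.59 ± 0.38 for FT 1 week and 1.19 ± 0.27 for FT 2 weeks (SE). The limma-trend adjusted p-values of these 4 comparisons lay at 0.275, 0.169, 0.124 and 0.258.

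Kars, the lysyl enzyme (chr8:111993443-112011323), measured 102.1, 73.7 and 105.2 normalized counts in NI, 128.3, 126.5 and 114.4 in HS 1 week, 129.2 and 110.2 in HS 2 weeks, 149.6 in the FT 1 week library, and 137.9, 156.5 and 121.3 in FT 2 weeks. Lars, the leucyl enzyme, measured 59.5, 48.5 and 53.5 normalized counts in NI, 73.7, 62.4 and 70.9 in HS 1 week, 78.3 and 60.5 in HS 2 weeks, 80.7 in the FT 1 week library, and 75.6, 67.9 and 61.5 in FT 2 weeks. Both genes kept injured libraries above NI with small gaps. Their log2 fold changes of the injured mean were 0.51 ± 0.16 and 0.41 ± 0.14 (SE), with limma-trend adjusted p-values of 0.199 and 0.249.

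Of the other 17 synthetase genes, those with the largest changes were Aars (alanyl), Eprs (glutamyl and prolyl), Farsb (the beta subunit of the phenylalanyl enzyme) and Wars (tryptophanyl). Aars ran from 101.9 to 124.2 normalized counts in NI and from 122.7 to 222.1 in injured libraries, with only FT 2 weeks replicate 3 inside the NI range. The log2 fold changes of the injured mean were 0.76 ± 0.18 for Aars, 0.68 ± 0.17 for Eprs, 0.50 ± 0.16 for Farsb and 0.50 ± 0.16 for Wars (SE, limma-trend adjusted p = 0.118, 0.13, 0.219 and 0.226). The remaining 13 genes (Nars, Yars, Cars, Qars, Sars, Tars, Dars, Vars, Rars, Hars, Mars, Farsa and Gars) had log2 fold changes from −0.16 to 0.48, 10 of them above 0. Taking the 20 synthetases as a group, the median log2 fold change was 0.35, against −0.03 over all genes. Of the 20, 17 lay above 0, as did 46.6% of all genes. The genes were chosen with this contrast known, so nothing is read from the excess. The alpha subunit gene Farsa (0.03 ± 0.20, SE) and the beta subunit gene Farsb of the same enzyme had 95% intervals of −0.41 to 0.46 and 0.14 to 0.86, which overlapped.

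**Figure D4:**
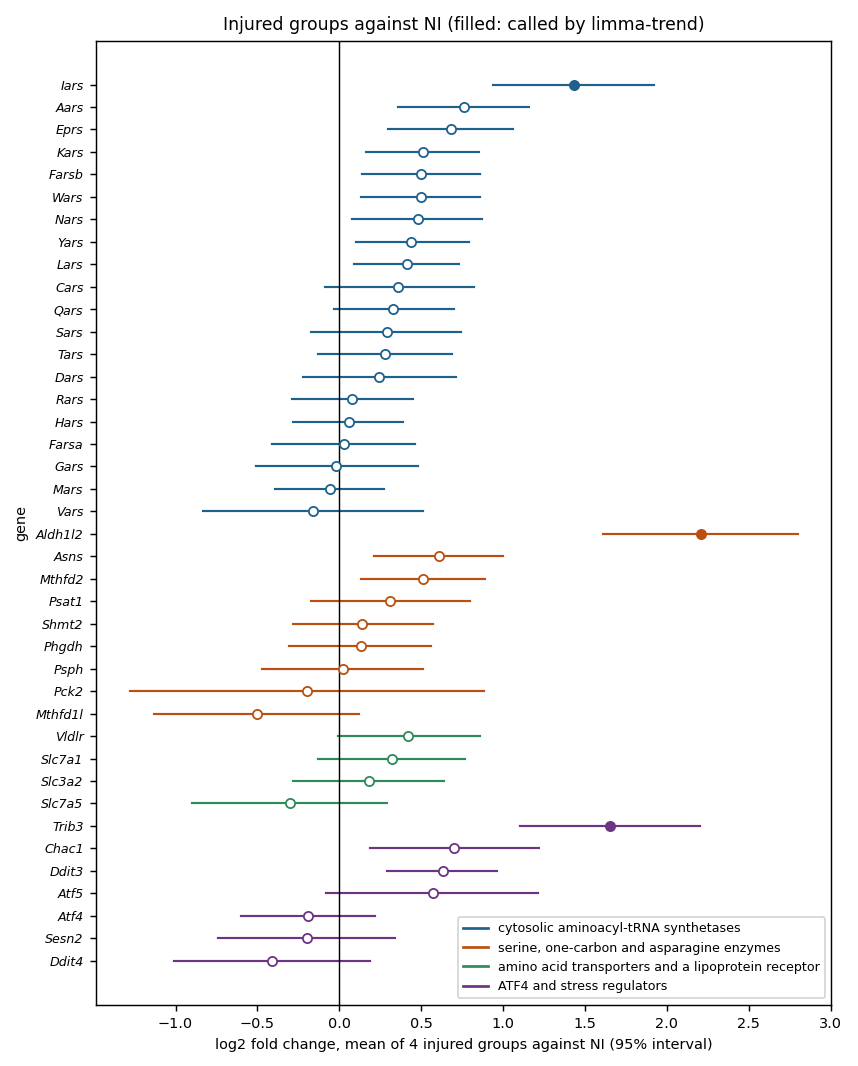
Log2 fold change of the mean of the 4 injured groups against NI (horizontal axis) with its 95% interval for each of the 40 genes (vertical axis), coloured by role and ordered by size. Filled points are the 3 genes called by limma-trend, and 31 of the 40 points lie to the right of 0.

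In serine and one-carbon metabolism the mitochondrial folate enzyme Aldh1l2 (chr10:83487450-83534140), a formyltetrahydrofolate dehydrogenase, had the largest change of the 40 genes on the log2(normalized count + 1) scale. By the edgeR likelihood ratio test, which adds no count of 1, its log2 fold change was 2.24 and that of Trib3 was larger at 2.67. Aldh1l2 measured 32.8, 23.1 and 18.4 normalized counts in NI, 142.8, 90.7 and 59.6 in HS 1 week, 144.9 and 153.8 in HS 2 weeks, 139.5 in the FT 1 week library, and 122.2, 79.8 and 76.8 in FT 2 weeks. Even the lowest injured library, HS 1 week replicate 3, was above the highest NI library. Aldh1l2 overlaps the gene D10Wsu102e on the opposite strand. Of the 40 genes, 11 overlap another coding gene, and Aars, Farsb, Wars and Atf5 are also among them. The part of shared reads was not tested for any of these genes. For Aldh1l2 the log2 fold change of the injured mean was 2.21 ± 0.27 (SE), a 4.61-fold rise (limma-trend adjusted p = 0.00969). Group by group it was 1.88 ± 0.32 for HS 1 week, 2.58 ± 0.36 for HS 2 weeks, 2.48 ± 0.46 for FT 1 week and 1.87 ± 0.32 for FT 2 weeks (SE). Only FT 1 week, a single library whose spread is taken from the other groups, was called by limma-trend (adjusted p = 0.0492), beside adjusted p-values of 0.116, 0.0703 and 0.109 in the others, while the edgeR likelihood ratio test called all 4.

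Asns (chr6:7675169-7693254), which makes asparagine and is a classic target of ATF4, measured 13.2, 11.4 and 14.8 normalized counts in NI, 19.6, 18.1 and 24.4 in HS 1 week, 21.5 and 20.4 in HS 2 weeks, 20.7 in the FT 1 week library, and 16.6, 23.8 and 19.2 in FT 2 weeks. All 9 injured libraries were higher, by a modest and even step. The log2 fold change of the injured mean was 0.61 ± 0.18 (SE, limma-trend adjusted p = 0.182), and the per group estimates lay between 0.55 and 0.64.

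The serine synthesis genes Psat1 and Phgdh had the highest levels of the 40 genes in NI per kilobase, while the third gene of that route, Psph, stood at 18.5 normalized counts per kilobase. Per kilobase of exon, Psat1 stood at 151.8 and Phgdh at 124.1 normalized counts in NI, followed by Atf4 at 61.3, whereas Aldh1l2 stood at 3.304, Asns at 4.81 and Trib3 at 0.303. Phgdh (chr3:98313170-98339990) measured 376.7, 250.3 and 298.3 normalized counts in NI, 326.0, 437.2 and 316.0 in HS 1 week, 304.6 and 297.7 in HS 2 weeks, 351.7 in the FT 1 week library, and 365.4, 375.6 and 243.3 in FT 2 weeks. Psat1 (chr19:15904678-15947337) measured 825.5, 546.5 and 565.1 in NI, 856.7, 1020 and 649.6 in HS 1 week, 694.8 and 700.3 in HS 2 weeks, 824.9 in the FT 1 week library, and 903.4, 921.3 and 624.3 in FT 2 weeks. The groups overlapped for both genes, and NI replicate 1 was the highest NI library for both. Log2 fold changes of the injured mean were 0.13 ± 0.20 for Phgdh and 0.31 ± 0.22 for Psat1 (SE, limma-trend adjusted p = 0.834 and 0.578). The sign for Phgdh turned to −0.08 when libraries were scaled to the same total, to −0.06 with oligodendrocyte transcripts as a covariate and to −0.01 without NI replicate 2.

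Among the other enzymes of the group, Mthfd2, a mitochondrial folate enzyme induced by ATF4, had a log2 fold change of 0.51 ± 0.17 (SE, limma-trend adjusted p = 0.234). Shmt2 and Mthfd1l, which act beside it in the mitochondrial folate pathway, had log2 fold changes of 0.14 ± 0.19 and −0.50 ± 0.28 (SE). Pck2, the mitochondrial form of phosphoenolpyruvate carboxykinase, varied widely within groups, from 12.1 to 32.4 normalized counts in NI and from 6.42 to 33.1 in injured libraries. The last of the 9 enzymes, Psph, had a log2 fold change of 0.02 ± 0.22 (SE).

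The 4 membrane proteins gave no call. Slc7a5 and Slc3a2, the light and heavy chains of the carrier for large neutral amino acids, had log2 fold changes of −0.30 ± 0.27 and 0.18 ± 0.21 (SE). The cationic amino acid carrier Slc7a1 and the lipoprotein receptor Vldlr, also an ATF4 target, had 0.32 ± 0.20 and 0.42 ± 0.20 (SE). Limma-trend adjusted p-values of the 4 were 0.674, 0.756, 0.533 and 0.372.

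Severity and time were compared among the injured libraries themselves, which does not involve NI. At 1 week, FT against HS, limma-trend called 0 of the 40 genes (0.348% of all genes were called), at 2 weeks it called 0 (0% of all genes), for 2 weeks against 1 week after HS 0 (0%), and for 2 weeks against 1 week after FT 0 (0.384%). In each of the 4 comparisons 1 of the 40 genes had an unadjusted p under 0.05, where 5.64%, 2.26%, 1.62% and 9.17% of all genes did. The edgeR likelihood ratio test also called 0 (0.696%, 0%, 0% and 1.31% of all genes). The lowest limma-trend adjusted p-values over the 40 genes were 0.826, 0.961, 1 and 0.398. The genes with an unadjusted p under 0.05 were Trib3 in both comparisons that involve FT 2 weeks, Slc7a5 for FT against HS at 1 week and Ddit3 for HS over time.

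For Trib3 the log2 difference of FT from HS at 2 weeks was −1.11 ± 0.33 (SE, 95% interval −1.84 to −0.37, limma-trend unadjusted p = 0.00693). Its difference of FT 2 weeks from the single FT 1 week library was −1.22 ± 0.42 (SE, interval −2.15 to −0.29, limma-trend unadjusted p = 0.0146). The 3 FT 2 weeks libraries lay below both HS 2 weeks libraries and below the FT 1 week library. Neither difference passed adjustment over all genes (limma-trend adjusted p = 0.961 and 0.398). For Aldh1l2 the log2 difference between FT and HS at 2 weeks was −0.71 (95% interval −1.51 to 0.08), and for Iars −0.45 (−1.11 to 0.20), and both intervals included 0. The median log2 difference over the 40 genes was 0.17 for FT against HS at 1 week, −0.07 for FT against HS at 2 weeks, 0.06 over time after HS and −0.11 over time after FT.

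Other genes of the stress pathway were counted from lists by function. In the mean of the injured groups 13.9% of all genes had an unadjusted p under 0.05, the share to set beside each count that follows. Of 17 mitochondrial synthetases, limma-trend called 0, 3 had an unadjusted p under 0.05, and the median log2 fold change was 0.16. Nars2 (mitochondrial asparaginyl) lay between 7.20 and 8.96 normalized counts in NI and at 11.7 or more in every injured library (log2 fold change 0.72 ± 0.17, SE, limma-trend adjusted p = 0.119). Cars2 (mitochondrial cysteinyl) lay between 8.56 and 10.2 in NI and at 7.18 or less in every injured library (−0.77 ± 0.25, SE, adjusted p = 0.219). None of the 14 mitochondrial synthetase genes with a promoter window held the core. The 3 scaffold proteins of the multisynthetase complex had a median of 0.04, with 0 called and 0 at an unadjusted p under 0.05.

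Of 13 genes for eIF2 kinases, eIF2 and eIF2B subunits and eIF2 phosphatase subunits, 0 were called and 1 had an unadjusted p under 0.05, with a median log2 fold change of 0.14. The largest estimate was that of Eif2ak2, the kinase activated by double-stranded RNA, at 0.78 ± 0.26 (SE, limma-trend adjusted p = 0.23). Of 19 endoplasmic reticulum chaperones and unfolded protein response genes, 0 were called, 1 had an unadjusted p under 0.05 and the median was 0.03. The chaperone Hspa5 stood at 803.1, 847.0 and 816.3 normalized counts in NI and from 478.3 to 1399 in injured libraries (0.13 ± 0.30, SE). Of 10 mitochondrial chaperones and proteases, 0 were called, 1 had an unadjusted p under 0.05 and the median was 0.07.

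Other targets of ATF4 gave no call. Of 23 such genes, limma-trend and the edgeR likelihood ratio test called 0, 4 had an unadjusted p under 0.05 (13.9% of all genes did), and 16 had a log2 fold change below 0 in the mean of the injured groups (median −0.10). The strongest estimates were negative: −1.38 ± 0.55 for the vascular growth factor Vegfa, −0.90 ± 0.34 for the amino acid carrier Slc7a3 and −0.75 ± 0.37 for the proline enzyme Pycr1 (SE). Atf3, a stress and injury factor, ranged from 28.1 to 132.8 normalized counts in NI and from 25.5 to 409.4 in injured libraries (−0.31 ± 0.75, SE). The core was present in 7 of 19 windows of this list (36.8%), close to the share in the 40 genes. Gdf15, Fgf21 and Stc2 had no row among the genes analysed here. Of 19 other folate and one-carbon genes, 0 were called, 0 had an unadjusted p under 0.05 and the median was −0.06. Aldh1l1, the cytosolic counterpart of Aldh1l2, had a log2 fold change of 0.68 ± 0.70 (SE, limma-trend adjusted p = 0.714).

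Genes that respond to enzymatic dissociation were followed because tissue was digested before sorting. By limma-trend all 10 immediate early and dissociation genes had log2 fold changes below 0 in each of the 4 groups, but by the edgeR likelihood ratio test Fos, Fosb and Nr4a1 stood at 0.20, 0.07 and 0.28 in HS 1 week. The limma-trend log2 fold changes had a median of −0.77 in the mean of the injured groups. None was called by limma-trend or the edgeR likelihood ratio test, and 1 had an unadjusted p under 0.05. Hspa1b, Ier2 and Jun had the largest changes of the list, at −1.01 ± 0.45, −0.97 ± 0.65 and −0.95 ± 0.46 (SE). The part of these genes in the result was not tested.

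Microglia and macrophage transcripts moved between libraries, so the strongest genes were set beside them. The summed level of 17 markers was 1364, 8330 and 10989 normalized counts in NI, 5434, 1361 and 18779 in HS 1 week, 20166 and 3256 in HS 2 weeks, 16233 in the FT 1 week library, and 3329, 2274 and 4078 in FT 2 weeks. Every marker had reads in every library. In the mean of the injured groups 15 of the 17 markers had log2 fold changes above 0 and 0 were called by limma-trend. HS 2 weeks replicate 1 and replicate 2 differed several-fold in these markers and carried 144.9 and 153.8 normalized counts of Aldh1l2 and 193.7 and 191.1 of Iars. In HS 1 week, Aldh1l2 measured 142.8, 90.7 and 59.6 and Iars 209.7, 131.6 and 118.4, beside sums of 5434, 1361 and 18779. In NI, Aldh1l2 measured 32.8, 23.1 and 18.4 and Iars 62.2, 58.0 and 61.9, beside sums of 1364, 8330 and 10989. With the log2 marker sum as a covariate, limma-trend called Aldh1l2, Iars and Trib3 in HS 1 week, HS 2 weeks and FT 1 week, and Aldh1l2 and Iars in FT 2 weeks. The log2 fold changes of the injured mean were then 2.27, 1.44 and 1.68 (adjusted p = 0.000295, 0.00219 and 0.00194). Whether microglia and macrophages had a part in these changes was not tested.

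**Figure D5:**
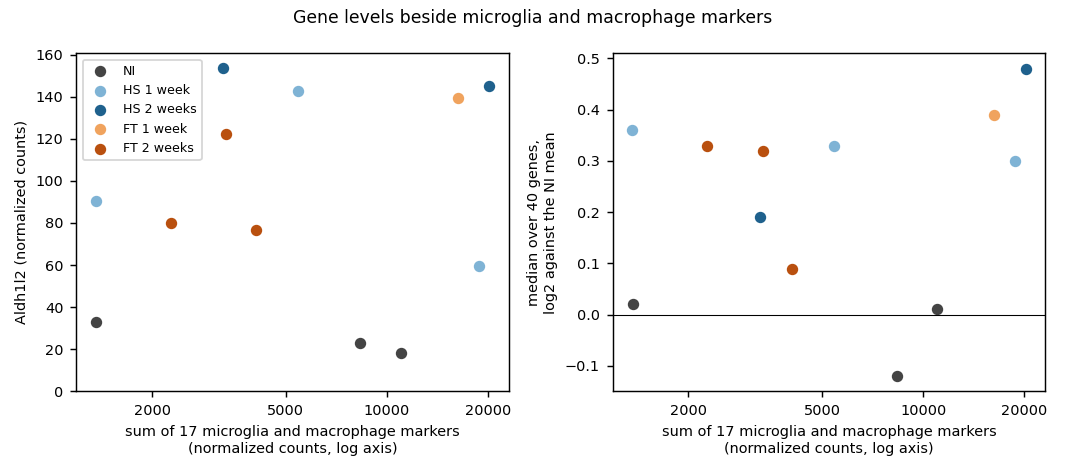
Aldh1l2 (left, normalized counts) and the median over the 40 genes of the log2 difference from the NI mean (right) against the summed level of 17 microglia and macrophage markers (horizontal log axes) in 12 libraries, coloured by group. Every injured library lies above every NI library in both panels. Marker sums run from 1361 to 20166 normalized counts in injured libraries but only from 1364 to 10989 in NI. The highest injured sums therefore have no NI library beside them.

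Other cell types were followed in the same way. Summed pericyte and fibroblast markers ran from 472.6 to 7148 normalized counts in NI and from 159.7 to 11718 in injured libraries. Oligodendrocyte markers ran from 56755 to 94517 in NI and from 57896 to 117456 in injured libraries, and 11 of their 12 genes had log2 fold changes above 0. Neuron markers summed to 179.6 to 406.3 in NI and 234.5 to 534.2 in injured libraries. Endothelial markers summed to 25.9 to 69.7 in NI and 24.1 to 82.3 in injured libraries. Schwann cell markers summed to 84.3, 15.6 and 94.2 in the NI libraries and to 8.63 to 20.3 in injured libraries, so that only NI replicate 2 lay within the injured range. No marker of any list was at 0 reads in any library. In the mean of the injured groups, limma-trend called the neuronal markers Tubb3 and Eno2 higher, and the edgeR likelihood ratio test also called the astrocyte marker Gfap higher and the Schwann cell markers Prx and Ncmap lower. With oligodendrocyte markers as a covariate, Aldh1l2 and Iars were called in the mean of the injured groups, and Trib3 was not. The part of the other cell types was not tested.

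The median over the 40 genes of the log2 difference from the NI mean was 0.02, −0.12 and 0.01 in NI, 0.33, 0.36 and 0.30 in HS 1 week, 0.48 and 0.19 in HS 2 weeks, 0.39 in the FT 1 week library, and 0.32, 0.33 and 0.09 in FT 2 weeks. FT 2 weeks replicate 3 was the injured library closest to NI, and HS 2 weeks replicate 1 the farthest from it. Genes were also split by the promoter core. The 10 genes with the core had a median log2 fold change of 0.53 in the mean of the injured groups and 8 lay above 0. The 21 with a window but no core had a median of 0.24 and 16 above 0, and the 9 without a window had 0.36 and 7 above 0. These groups were not tested against each other.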

How the data were processed

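Normalized counts of the 12 libraries were taken as deposited. Per the labels and the methods, libraries were made with a SMARTer and Nextera kit that does not mark strand. The authors aligned reads with TopHat2 2.0.9 to mm10 (GRCm38), used HTSeq 0.5.4p3 for gene counts, dropped genes with low counts, and scaled for library size in edgeR 3.3.6. What was deposited as signal is gene counts divided by 1 factor per library. With that factor, 100.0% of values became whole reads within 1e-06, and these reads served the count tests. Counts per library ran from 8270643 to 15562378 reads, and scaled totals from 846082 to 1133494.

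A single limma-trend model of the 5 groups (limma 3.58.1, R 4.3.3) was fitted to log2(normalized count + 1). It covered the 16388 genes whose mean reached 0.5 in any group. The residual degrees of freedom were 7. P-values were adjusted by Benjamini-Hochberg over all tested genes, and a call needed an adjusted p under 0.05 and a 2-fold change. The fold changes are on this log2 scale with a pseudocount of 1, which understates low genes. Alternatives were edgeR 4.0.16 and DESeq2 1.42.0 on the recovered reads, other pseudocounts, filters and scalings, array weights, covariates and each library left out.

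The 40 genes and all lists were chosen with earlier results of these data known. Given in full were genes called by limma-trend or by the edgeR likelihood ratio test in a comparison with NI, genes with all injured libraries beyond NI, and Atf4, Ddit3, Asns, Phgdh and Psat1. Of the other genes, up to 4 per role with the largest change in the mean of the injured groups were named. Of each other list, up to 3 were named, plus Aldh1l1, Atf3, Gdf15, Fgf21 and Hspa5. Of marker lists, only called genes were named. A marker gene and a promoter site are not reported here. The genes with 8 of 9 injured libraries above NI, and those past 1 unit in the heatmap, were named after their values were seen. Positions and exon lengths come from GENCODE M21 and promoter windows from RefSeq, both GRCm38.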

Additional observations from a re-analysis of the deposited data

How the results depend on the processing

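No comparison among the injured groups gained a call in any alternative run. Against NI, the number of the 40 genes called moved with the test. At 1 week after HS it was 0 by limma-trend, 3 with array weights, 3 with the microglia and macrophage covariate, 2 by the edgeR likelihood ratio test and 3 by DESeq2. At 2 weeks after HS it was 0, 3, 3, 3 and 3, and 1 with the oligodendrocyte covariate. At 1 week after FT it was 1, 4, 3, 3 and 3, and 2 by the edgeR quasi-likelihood test, but 0 with a pseudocount of 0.25, with a mean of at least 5, with median ratio scaling, with libraries scaled to the same total and when the model held the compared groups alone. At 2 weeks after FT it was 0, 4, 2, 2 and 3. In the mean of the injured groups it was 3 by limma-trend. Without the FT 1 week library it was 1 (Aldh1l2), with a limma-trend adjusted p of 0.0584 for Iars and 0.0645 for Trib3. Trib3 was also not called with a pseudocount of 4, a mean of at least 5, the replicate block or the oligodendrocyte covariate. Iars was also not called by the edgeR quasi-likelihood test.

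Leaving out 1 library at a time, with limma-trend or the edgeR likelihood ratio test, gave 0 to 3 calls in HS 1 week, in HS 2 weeks, in FT 1 week and in FT 2 weeks, 0 to 4 in the mean of the injured groups and 0 to 0 among injured groups. By limma-trend the mean lost all 3 calls without NI replicate 2 (Aldh1l2 adjusted p = 0.0643, Iars 0.163, Trib3 0.162) and without NI replicate 3 (0.0824, 0.158 and 0.127). Iars alone was lost without HS 2 weeks replicate 1 (0.0604), HS 2 weeks replicate 2 (0.0519) or FT 2 weeks replicate 2 (0.0722), and Trib3 alone without FT 2 weeks replicate 3 (0.0514). The edgeR likelihood ratio test, a choice added after the data were seen, kept all 3 genes in every such fit (highest FDR 0.000465 for Aldh1l2, 0.0404 for Iars and 0.00782 for Trib3). These fits left out each library but FT 1 week, and the edgeR likelihood ratio test was not run without that library. Medians ranged from 0.21 to 0.33 for HS 1 week, 0.19 to 0.48 for HS 2 weeks, 0.34 to 0.53 for FT 1 week, 0.22 to 0.39 for FT 2 weeks, 0.27 to 0.4 in the mean, 0.14 to 0.2 and −0.15 to 0.01 for FT against HS at 1 and 2 weeks, −0.08 to 0.11 over time after HS and −0.19 to −0.07 over time after FT.

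Scaling libraries to the same total moved the median over all genes, at most from −0.02 to −0.27 (1 week after FT), and the median of the 40 genes to 0.05 for HS 1 week, 0.17 for HS 2 weeks, 0.11 for FT 1 week, 0.16 for FT 2 weeks, 0.12 in the mean and 0.04 over time after FT. Relative to all genes the 40 genes then stood at 0.32 in the mean, against 0.34 as reported. Array weights gave 0.35 at 1 week after HS, 0.53 and 0.38 after FT and 0.45 in the mean. The microglia and macrophage covariate gave 0.48 at 1 week after FT and −0.19 over time after FT, and the oligodendrocyte covariate 0.16 at 2 weeks after FT. The sign for Phgdh reversed with libraries scaled to the same total (−0.08), with the oligodendrocyte covariate (−0.06) and without NI replicate 2 by limma-trend and by the edgeR likelihood ratio test (−0.01 in both), and leaving out 1 library at a time gave −0.01 to 0.28 by limma-trend and up to 0.29 by the edgeR likelihood ratio test. The cause was not tested.

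Correlations of same-numbered libraries' deviations from their group means ran from −0.478 to 0.718. Those of differently numbered libraries ran from −0.725 to 0.667. Deviations from the mean of so few libraries are tied to each other, so these values cannot settle whether replicate numbers pair the libraries. With the replicate number as a block, 1 gene (Aldh1l2) was called in each of the 4 groups, 2 (Aldh1l2 and Iars) in the mean and 0 among injured groups, with a median of 0.27 in the mean. Depth limits the values of Trib3 (8 to 86 reads per library) and Chac1 (4 to 25) most among the named genes.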

Other observations

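The number of genes with every injured library above every NI library depended on which library was left out, a count added after the data were seen. It was 7 of 40 with all libraries (1.97% of all genes) and 7 to 10 when any single library other than NI replicate 1 was left out. Without NI replicate 1 it was 17 of 40, where 7.24% of all genes met the same condition, and 1 gene (Mars) had all injured libraries below NI, where 7.4% of all genes did. The genes added then were Aars, Dars, Eprs, Farsb, Hars, Sars, Wars and Yars among the synthetases, and Psat1 and Mthfd2 among the enzymes. NI replicate 1 had the lowest microglia and macrophage sum (1364 against 8330 and 10989 normalized counts) and the highest pericyte and fibroblast sum (7148 against 664.7 and 472.6) of the 3 NI libraries. The part of these differences in the count was not tested.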
